A study of Mus musculus with 25 samples.

Results

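The chromatin around 49 interferon response genes was examined in OVA-specific CD8+ T cells (T_FGS, fetus- and graft-specific T cells) by ATAC-seq, an assay in which a transposase inserts sequencing adapters where DNA is accessible. A peak, that is a stretch of accessible DNA listed by the study, was assigned to these genes when the nearest annotated start of a protein-coding gene to its midpoint was the start of 1 of the 49. This gave 70 of the 13527 peaks in the count table, and they belonged to 35 of the 49 genes. The genes Gbp2, Gbp4, Ifit1, Ifit3, Tap2, Psmb8, Parp9, Oas1a, Oas2, Oasl2, Rigi, Eif2ak2, Xaf1 and Irf5 had no assigned peak. Of the 70 peaks, 28 were promoter peaks, with a midpoint within 1 kb of an annotated transcript start, 25 lay between genes, 15 lay in introns and 2 in exons. A peak outside a promoter is named here by its gene and by the distance of its midpoint from the gene's start, with a minus sign upstream, so that Irf2 +43.4 kb lies 43.4 kb downstream of the Irf2 start. The nearest gene is a name for a peak and does not show which gene the DNA acts on. In particular, 4 peaks outside promoters lie in another gene than the one that names them, namely Samhd1 −12.6 kb in Rbl1, Zbp1 −11.1 kb in Pmepa1 and both Irf4 peaks in Exoc2. They are counted in the role totals, and 0 of the 4 were called in any comparison.

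Interferons are cytokines that announce infection and tissue damage. Type I interferons bind a receptor made of Ifnar1 and Ifnar2, and interferon-γ, a product of activated T cells, binds one made of Ifngr1 and Ifngr2. Both receptors act through Janus kinases on STAT proteins. Complexes of STAT proteins with Irf9 then bind the interferon-stimulated response element (ISRE), and STAT dimers bind the gamma-activated site (GAS). IRF factors use sites of the ISRE kind, and Irf4 and Irf8 also bind composite sites with ETS factors (EICE) or AP-1 factors. The target genes code for antiviral effectors, sensors of foreign nucleic acid, the ubiquitin-like protein ISG15 and its enzymes, guanylate-binding proteins and the machinery of antigen presentation. In CD8+ T cells the same receptors shape expansion, memory and exhaustion.

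All libraries came from female C57BL/6 mice, and the T_FGS were sorted from spleen and lymph nodes with OVA:Kb tetramers, so that the cells of every group were specific for the same model antigen. Naive mice (3 libraries) had no treatment. Sensitized mice (4 libraries) had rejected an allogeneic skin graft from 2W-OVA.BALB/c donors. Naive+Pregnancy (N+P) and Sensitized+Pregnancy (S+P) mice had carried a pregnancy by 2W-OVA.BALB/c males and were taken just after birth, and their T_FGS were divided by surface markers into N+P C1 (PD1-, 3 libraries), N+P C5 (PD1+CD73+, 3 libraries), S+P C4 (PD1-, 4 libraries), S+P C5 (PD1+CD73+, 4 libraries) and S+P C7 (PD1+CD73-, 4 libraries). Naive and Sensitized cells were not divided in this way, so a difference of a sorted subset from them holds the effect of pregnancy and that of the sort together. The paper gives the same minimum interval after the graft for taking Sensitized cells and for mating S+P mice. Time since the graft therefore cannot be told apart from pregnancy where S+P is compared with Sensitized.

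The 25 libraries held between 2430890 and 25419715 counts in peaks, the lowest in S+P C4 replicate 1 and the highest in S+P C5 replicate 1. Promoter peaks were present at 5 of 6 T cell marker genes and at Cd8a, while Cd8b1 had no peak, and no peak was assigned to any of 6 B cell or 6 myeloid markers. Of the CD4 T cell markers 1 of 3 had a peak and of the NK cell markers 1 of 2, neither with a promoter peak. Promoter peaks were present at Bst2, which is also 1 of the 49 genes, and Tcf4 among 3 markers of plasmacytoid dendritic cells (summed counts of 781 to 1272 over all libraries), and at Klf1 among 3 erythroid markers (388 to 528). What part other cells had in the results was not tested. Some libraries stood apart from their group: across all peaks, Sensitized replicates 3 and 4 correlated better with the N+P C5 mean (r = 0.973 and 0.955) than with the rest of their own group (0.918 and 0.937), S+P C4 replicate 1 did so as well (0.923 against 0.869), Sensitized replicate 1 was closer to the S+P C4 mean (0.931 against 0.868), and Naive replicate 3 had a higher r with the N+P C1 mean than with its own group (0.988 against 0.970). Values are therefore given by library, and calls are repeated without each Sensitized library singly and without replicates 3 and 4 together. Since each library is a pool of sorted cells, fewer cells with an open site and less opening per cell cannot be told apart.

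The ISRE was searched for as GAAA, any 2 bases and GAAA, the GAS as TTCNNNGAA, the EICE as GGAA, any 2 bases and GAAA, and the AP-1 site as TGANTCA, on both strands. Such strings can overlap, and the EICE string can share bases with an ISRE string. In RefSeq promoters (GRCm38.p6, 250 bases before to 50 after the start), 39 of the 49 genes had an entry, and the ISRE string was in 15 of these 39 promoters (38.5%), against 3.49% of all 27025 promoters. The GAS string was in 14 of the 39 (35.9%), against 8.47% of all promoters. Stretches around the ISRE strings of 5 genes are shown, because they are the best known control sequences of this response. The Stat2, Rsad2 and Bst2 stretches lie inside promoter peaks of the table, whereas those of Isg15 and Ifit1 lie in none of the 70 peaks. Capitals mark the ISRE string in gene orientation, and the coordinates are those of the exact match in GRCm39.
Stat2, chr10:128106120-128106179, + strand: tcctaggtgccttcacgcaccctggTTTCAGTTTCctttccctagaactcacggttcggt
Rsad2, chr12:26506537-26506596, - strand: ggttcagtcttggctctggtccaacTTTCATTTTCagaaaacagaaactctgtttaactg
Bst2, chr8:71990206-71990271, - strand: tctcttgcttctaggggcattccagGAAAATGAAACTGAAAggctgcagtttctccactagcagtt
Isg15, chr4:156285307-156285378, - strand: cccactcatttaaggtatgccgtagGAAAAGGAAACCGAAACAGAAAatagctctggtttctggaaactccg
Ifit1, chr19:34618160-34618238, + strand: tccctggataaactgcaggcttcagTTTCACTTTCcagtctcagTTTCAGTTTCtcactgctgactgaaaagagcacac

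In the central 300 bases of the peaks themselves (GRCm39), the ISRE string was in 8 of the 28 promoter peaks (28.6%; 2.65% of all promoter peaks of the table) and in 3 of the 42 other peaks (7.14%; 6.4% of all other peaks). In none of the 15 peaks that changed in any comparison was the ISRE string in this window. With 6.4% of all peaks outside promoters holding it, that count says little. The GAS string was in 2 of these 15 windows, the EICE string in 2 and the AP-1 string in 3, against 10.2%, 3.33% and 15.8% of all peaks outside promoters. The windows of 5 changed peaks are shown on the + strand, with any of the 4 strings in capitals. The first belongs to the peak with the largest change after pregnancy in sensitized mice and holds none of them, and it ends in a run of alternating a and c. The second holds a GAS string, the third an EICE string followed by an AP-1 string, the fourth an EICE string and the fifth an AP-1 string.
Irf2 +43.4 kb, chr8:47235434-47235733: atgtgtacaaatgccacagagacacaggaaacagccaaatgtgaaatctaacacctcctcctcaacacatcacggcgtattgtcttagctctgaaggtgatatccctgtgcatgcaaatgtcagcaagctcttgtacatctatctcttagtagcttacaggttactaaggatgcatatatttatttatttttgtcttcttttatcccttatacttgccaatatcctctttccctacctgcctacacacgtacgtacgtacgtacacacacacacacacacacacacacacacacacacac
Ifngr2 −8.5 kb, chr16:91335211-91335510: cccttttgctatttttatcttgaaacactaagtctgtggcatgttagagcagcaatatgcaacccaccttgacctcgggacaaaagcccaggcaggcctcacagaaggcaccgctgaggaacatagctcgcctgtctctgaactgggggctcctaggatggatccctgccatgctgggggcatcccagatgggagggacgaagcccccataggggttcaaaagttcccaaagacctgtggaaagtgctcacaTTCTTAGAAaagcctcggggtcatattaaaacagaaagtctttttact
Ifnar1 −9.1 kb, chr16:91272662-91272961: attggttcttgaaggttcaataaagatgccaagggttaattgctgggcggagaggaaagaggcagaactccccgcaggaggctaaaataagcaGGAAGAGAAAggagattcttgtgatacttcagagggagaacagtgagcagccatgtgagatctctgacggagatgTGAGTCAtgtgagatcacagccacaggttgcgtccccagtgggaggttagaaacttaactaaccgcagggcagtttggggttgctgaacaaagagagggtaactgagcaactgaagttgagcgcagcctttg
Nlrc5 +19.9 kb, chr8:95180784-95181083: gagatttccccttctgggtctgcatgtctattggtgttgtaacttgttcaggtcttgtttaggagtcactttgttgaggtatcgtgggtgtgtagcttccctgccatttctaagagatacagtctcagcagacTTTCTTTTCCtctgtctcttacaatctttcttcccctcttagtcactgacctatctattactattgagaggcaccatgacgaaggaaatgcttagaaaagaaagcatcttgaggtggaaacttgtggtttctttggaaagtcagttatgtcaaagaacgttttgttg
Gbp3 −9.6 kb, chr3:142255981-142256280: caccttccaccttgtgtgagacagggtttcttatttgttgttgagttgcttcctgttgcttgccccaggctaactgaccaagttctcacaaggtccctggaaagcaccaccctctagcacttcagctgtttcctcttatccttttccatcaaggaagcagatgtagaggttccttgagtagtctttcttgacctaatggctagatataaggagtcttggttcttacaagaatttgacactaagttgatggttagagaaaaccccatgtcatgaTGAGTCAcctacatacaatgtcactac

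The 28 promoter peaks, which belonged to 27 of the 49 genes, had reads in every library and differed little between groups. Not all were listed as peaks in every group: those of Mx1 and Ifi35 were listed in S+P C5 only and that of Parp14 in N+P C5 only. Over the 28 promoter peaks, the highest of the 7 group means was between 1.16 and 1.93 times the lowest, with a median of 1.33, which was also the median over all promoter peaks of the table. A peak was called when DESeq2's Wald test gave a Benjamini-Hochberg adjusted p under 0.1 and the log2 fold change exceeded 0.9 in size. By this rule 0 of the 28 promoter peaks were called in any of the 11 comparisons. Among all promoter peaks of the table the share called was 1.15% for Sensitized vs Naive, 0.652% for S+P C5 vs Sensitized and 3.36% between the C5 subsets of sensitized and naive mothers. A count of 0 in 28 therefore does not set these promoters apart. Without the fold threshold, 8 of the 28 had an adjusted p under 0.1 in S+P C5 vs Sensitized (26.4% of all promoter peaks), 11 did so in S+P C7 vs Sensitized (47.6%) and 14 did so for S+P C5 vs N+P C5 (58.4%).

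Levels of promoter peaks are given as normalized read counts per kb of peak, mean ± SD over the libraries of a group, for the first genes of each role. Among the regulators, Irf7, the factor that amplifies type I interferon production, ran from 328 ± 28.2 in Sensitized to 476 ± 54.7 in S+P C7. Against Sensitized it differed on the log2 scale by 0.35 ± 0.09 (SE) for S+P C4, 0.43 ± 0.09 for the PD1+CD73+ cells of S+P C5 and 0.54 ± 0.09 for those of S+P C7, which lack CD73 (adjusted p = 0.012, 6.6e-05 and 7.9e-08), below the fold threshold each time. Irf1, a broad activator of interferon targets, ran from 405 ± 69.3 in N+P C5 to 506 ± 38.7 in S+P C7. Irf2, its frequent antagonist on the same sites, ran from 471 ± 25.6 in S+P C7 to 639 ± 45.7 in N+P C1. Irf3, which responds to nucleic acid sensors, lay between 504 ± 111 in N+P C1 and 663 ± 64.3 in S+P C4, and its promoter peak also overlaps the neighbouring gene Bcl2l12. Of the receptors, the Ifnar1 promoter ran from 469 ± 8.92 in N+P C1 to 652 ± 71.5 in S+P C7, and that of Ifngr1, the highest of the 28 per kb, from 657 ± 52.1 in S+P C5 to 849.7 ± 86.3 in S+P C4.

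Among the antiviral effectors, the promoter peak 267 bp upstream of Isg20, an exonuclease gene, varied most of the 28. It ran from 608 ± 43.7 in N+P C5 to 315 ± 50.9 in S+P C7 and differed from Sensitized by -0.53 ± 0.15 (S+P C5) and -0.80 ± 0.15 (S+P C7) (adjusted p = 0.0044 and 3.1e-06), again inside the fold threshold. Ifit2, which binds viral RNA, ran from 472 ± 81.2 in Naive to 735 ± 154 in S+P C7. Mx1, an antiviral GTPase gene, ran from 376 ± 97.7 in Naive to 638 ± 190 in S+P C4. Rsad2, the gene of viperin, ran from 349.6 ± 146 in S+P C7 to 623 ± 50.0 in N+P C1. These pairs are the lowest and highest group means, and most of the promoters had groups whose libraries overlapped in between.

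The sensor genes Ifih1, Zbp1 and Trim25 had promoter levels of 462 ± 55.5 in S+P C4 to 611 ± 67.6 in N+P C1, 501 ± 44.0 in Naive to 644 ± 18.0 in N+P C5, and 396 ± 56.5 in N+P C5 to 587 ± 35.2 in S+P C7. In the ISG15 and ADP-ribosylation group, Usp18, which removes ISG15 and restrains Ifnar signalling, stayed between 609 ± 48.8 and 707 ± 21.6, and the promoter shared by Dtx3l and Parp9 ran from 419.8 ± 51.7 in S+P C7 to 661 ± 35.6 in N+P C5. Parp14 had the lowest promoter level of the 28, from 248 ± 37.5 in S+P C7 to 369 ± 27.7 in N+P C5. The guanylate-binding protein gene Gbp3 was lowest in Naive (449.6 ± 62.3) and highest in Sensitized (675 ± 120), with a log2 fold change of 0.58 ± 0.14 and adjusted p = 0.00032, and Gbp7 ran from 381 ± 25.6 in S+P C5 to 553 ± 9.95 in N+P C5. For antigen presentation, the promoter shared by Psmb9 and Tap1, an immunoproteasome subunit and a peptide transporter, ran from 476 ± 73.1 in Sensitized to 606 ± 38.5 in S+P C7. B2m, the light chain of MHC class I, stayed between 432 ± 46.0 and 513 ± 22.2, and Nlrc5, the activator of MHC class I genes, between 491 ± 42.7 and 577 ± 16.4.

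**Figure D1:**
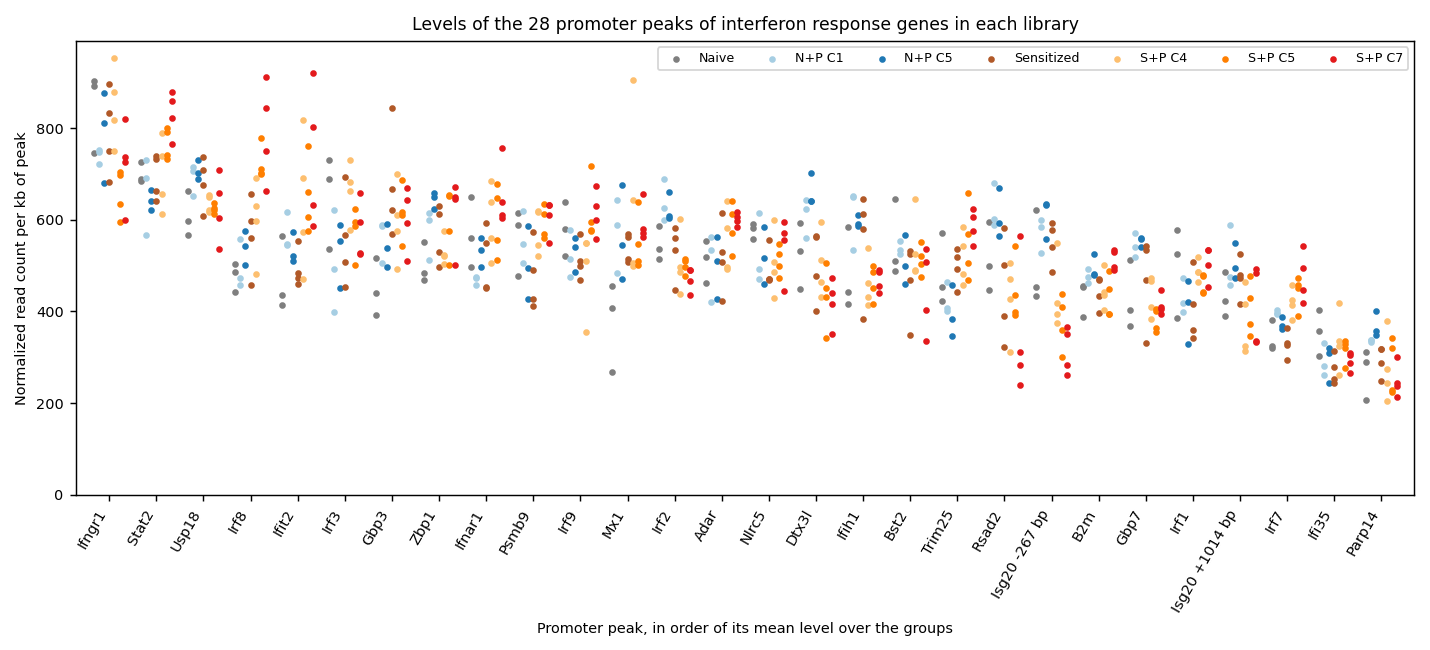
Normalized read count per kb of peak (y axis, from 0) for the 28 promoter peaks of interferon response genes (x axis, ordered by mean level), with 1 point per library coloured by group. All promoters are well above 0 in all 7 groups, and the highest group mean is at most 1.93 times the lowest.

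The peaks outside promoters carried the changes. Among these 42, the highest group mean was between 1.15 and 30.9 times the lowest, with a median of 1.77, against 2.0 over all peaks outside promoters of the table. The ratio exceeded 2 at 16 of the 42 peaks, and 50.0% of all peaks outside promoters exceeded it. Over the 11 comparisons there were 43 calls, at 15 distinct peaks of 11 genes, and the remaining 55 peaks were called in none. These 15 were 21.4% of the 70 peaks and 35.7% of the 42 outside promoters, against 22.0% of all peaks and 44.3% of all peaks outside promoters called in at least 1 comparison, so neither share exceeded the background. A peak entered the table by being listed in at least 1 group, and 11 of the 70 were listed in 1 group only. Among these were Irf2 +43.4 kb, Nlrc5 +13.4 kb and Usp18 −7.5 kb, listed in S+P C5 alone, and Oasl1 −1.2 kb, listed in Naive alone, so their counts in those groups are not independent of how they came into the table. The same holds for Ifnar1 −38.0 kb, Ifnar1 −23.5 kb, Nlrc5 +24.5 kb, Gbp3 −9.6 kb and Ifngr1 +5.1 kb, which were listed in S+P C5 and S+P C7 only. That makes 8 of the 15 called peaks that no other group listed. Gbp7 +3.1 kb was listed in Sensitized and S+P C5 only, Ifnar2 −5.8 kb in these and S+P C7, and Ifngr2 −8.5 kb in the 3 groups of unsensitized mice only. The p-values given for all these peaks do not allow for that entry.

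**Figure D2:**
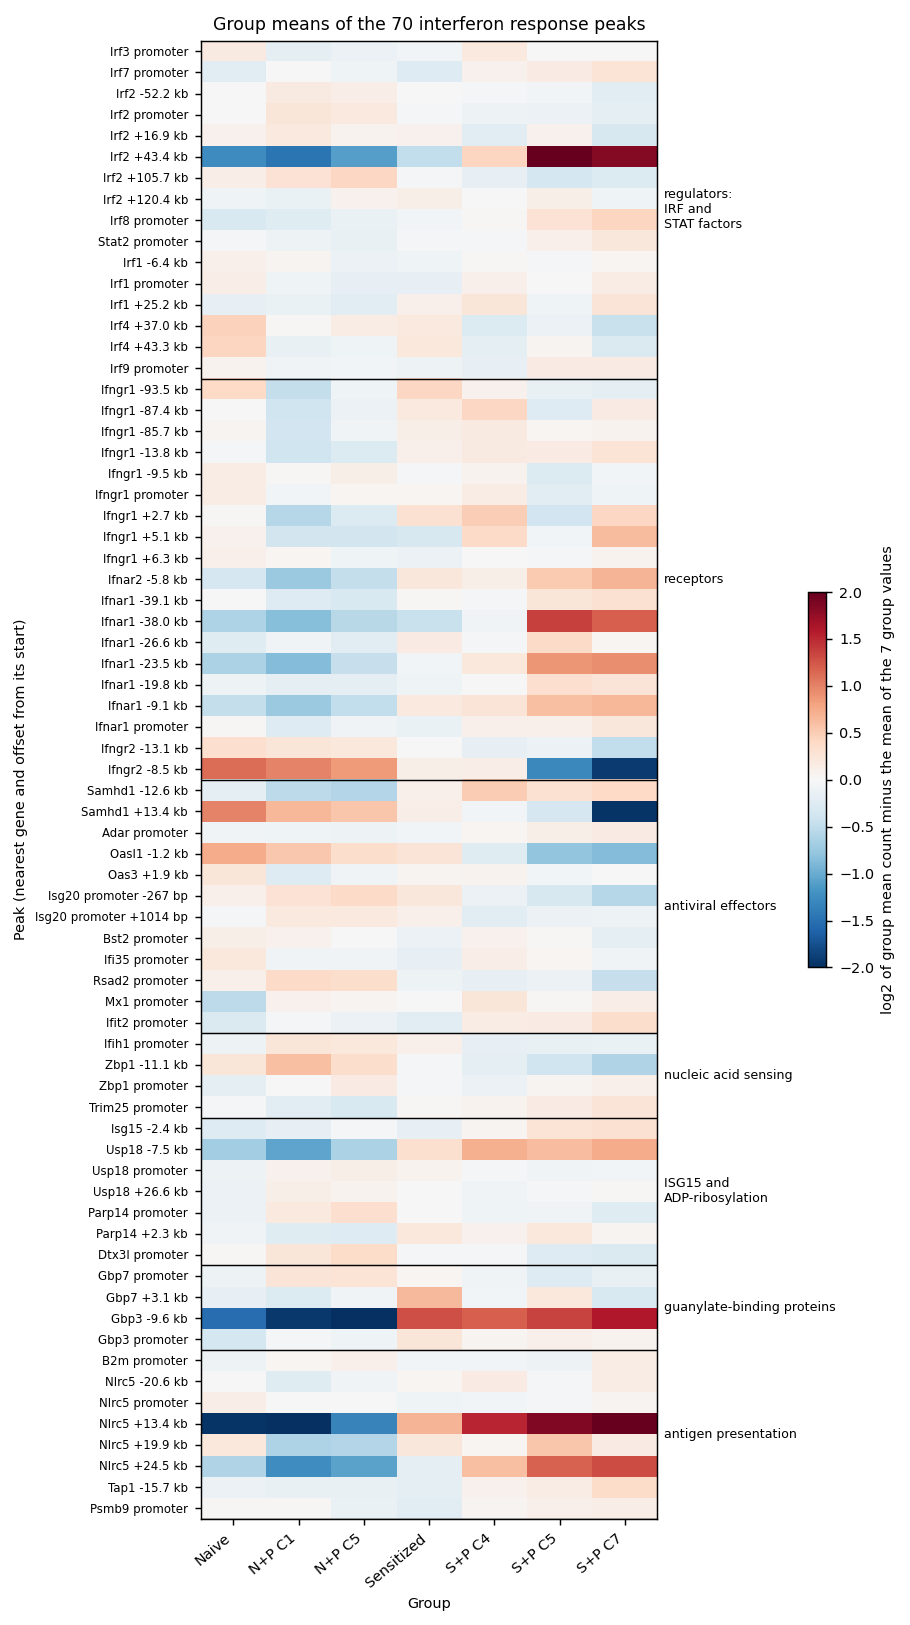
Group means of the 70 peaks (rows, by role and gene) in the 7 groups (columns), as the log2 of the mean normalized count minus the average of the 7 log2 values of that peak, with colours ending at -2 and 2. Most rows are pale, and the strong colours sit in a few rows outside promoters such as Nlrc5 +13.4 kb, Gbp3 −9.6 kb, Irf2 +43.4 kb and Ifngr2 −8.5 kb.

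Sensitization alone was addressed by Sensitized vs Naive, where 4 of the 70 peaks were called, 3 opening and 1 closing, against 8.62% of all peaks, 7.22% opening and 1.4% closing. The median log2 fold change was 0.03 over the 70 and -0.01 over all peaks. Loess offsets, which centre the change at each level of mean count, gave 1 opening and 2 closing of the 70. Of all peaks they gave 713 opening and 351 closing, against 977 and 189 without them. The effect of pregnancy without earlier sensitization was addressed by N+P C1 vs Naive and N+P C5 vs Naive, in each of which 0 of the 70 peaks were called by DESeq2, against 0.00739% of all peaks in both, that is 1 peak, which closed in the first and opened in the second. At an unadjusted p under 0.05 there were 17 and 12 of the 70, against 19.0% and 17.5% of all peaks, and edgeR also called 0 in both. DESeq2's filter on low counts left 52 and 60 of the 70 without an adjusted p in these comparisons, and switching it off also gave 0 calls among the 70, against 0.288% and 0.177% of all peaks. A fit of the compared groups alone gave 0 as well, against 0.614% and 0.481%. Total counts as size factors and loess offsets each gave 1 closing peak for N+P C1 vs Naive (0.414% and 0.0222% of all peaks). Without Naive replicate 3, which stood apart from its group, N+P C1 had 2 calls and N+P C5 had 1 (1.18% and 1.16%). N+P C5 vs N+P C1 gave 0 calls (0.0% of all peaks), with 2 of the 70 at an unadjusted p under 0.05 (2.28% of all peaks) and 0 calls by edgeR.

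The effect of pregnancy in sensitized mice was addressed by 3 comparisons with Sensitized, which share those 4 libraries and are therefore set side by side. S+P C4 had 1 called peak of 70, opening (0.858% of all peaks, 0.562% opening and 0.296% closing). S+P C5 had 7, with 5 opening and 2 closing (6.74%, with 3.08% opening and 3.67% closing). S+P C7 had 10, with 6 opening and 4 closing (11.9%, with 3.84% opening and 8.03% closing). The medians over the 70 were 0.04, 0.04 and 0.10, and over all peaks -0.02, -0.01 and 0.00. The balance of directions in S+P C5 vs Sensitized moved with the processing. Loess offsets gave 2 opening and 2 closing of the 70, and 196 and 646 of all peaks, against 416 and 496 without them. Leaving out Sensitized replicates 3 and 4 gave 3 and 0 of the 70, and 292 and 147 of all peaks. The contrast of S+P C5 with N+P C5, the same sorted subset with and without sensitization, had 12 called peaks, 10 opening and 2 closing (17.2%, with 10.3% opening and 6.97% closing), with a median of 0.11 over the 70. With loess offsets 7 of the 70 opened and 3 closed in this contrast. Of all peaks 897 opened and 1143 closed with them, against 1390 and 943 without. Within sensitized post-partum cells, the C5 subset against C4 gave 2 opening peaks and 1 closing peak (5.12%, with 3.12% opening and 2.0% closing). S+P C7 against C5 gave 1 call, closing (2.38%, with 0.266% opening and 2.11% closing). Over both directions these shares are near those of all peaks, so the counts as such are not a result about interferon response genes. The opening shares of S+P C5 and S+P C7 against Sensitized lay further from those of all peaks, on 5 and 6 peaks. The description that follows is of single sites.

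Weaker criteria were counted as well. Without a fold threshold, an adjusted p under 0.1 was reached by 14 of the 70 peaks in Sensitized vs Naive (20.5% of all peaks), 3 for N+P C1 vs Naive (4.29%) and 0 when N+P C5 was set against Naive (2.23%). Against Sensitized, 6 reached it in S+P C4 (6.54%), 24 did in S+P C5 (32.9%) and 34 did in S+P C7 (52.9%). The number was 39 for S+P C5 vs N+P C5 (63.8%), 6 for S+P C7 against C5 (8.93%), 14 for S+P C5 against C4 (13.3%), 0 for N+P C5 vs N+P C1 (0.0%) and 20 for the interaction described further on (31.2%). The libraries of the compared groups did not overlap at 19 of the 70 peaks in Sensitized vs Naive (22.7% of all peaks), 23 for N+P C1 vs Naive (27.0%) and 22 when N+P C5 was set against Naive (26.2%). Against Sensitized this held at 3 peaks in S+P C4 (3.96%), 15 peaks in S+P C5 (14.7%) and 24 peaks in S+P C7 (25.5%). It held at 40 peaks for S+P C5 vs N+P C5 (62.9%), 6 for S+P C7 against C5 (11.5%), 11 for S+P C5 against C4 (11.7%) and 12 for N+P C5 vs N+P C1 (11.1%).

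**Figure D3:**
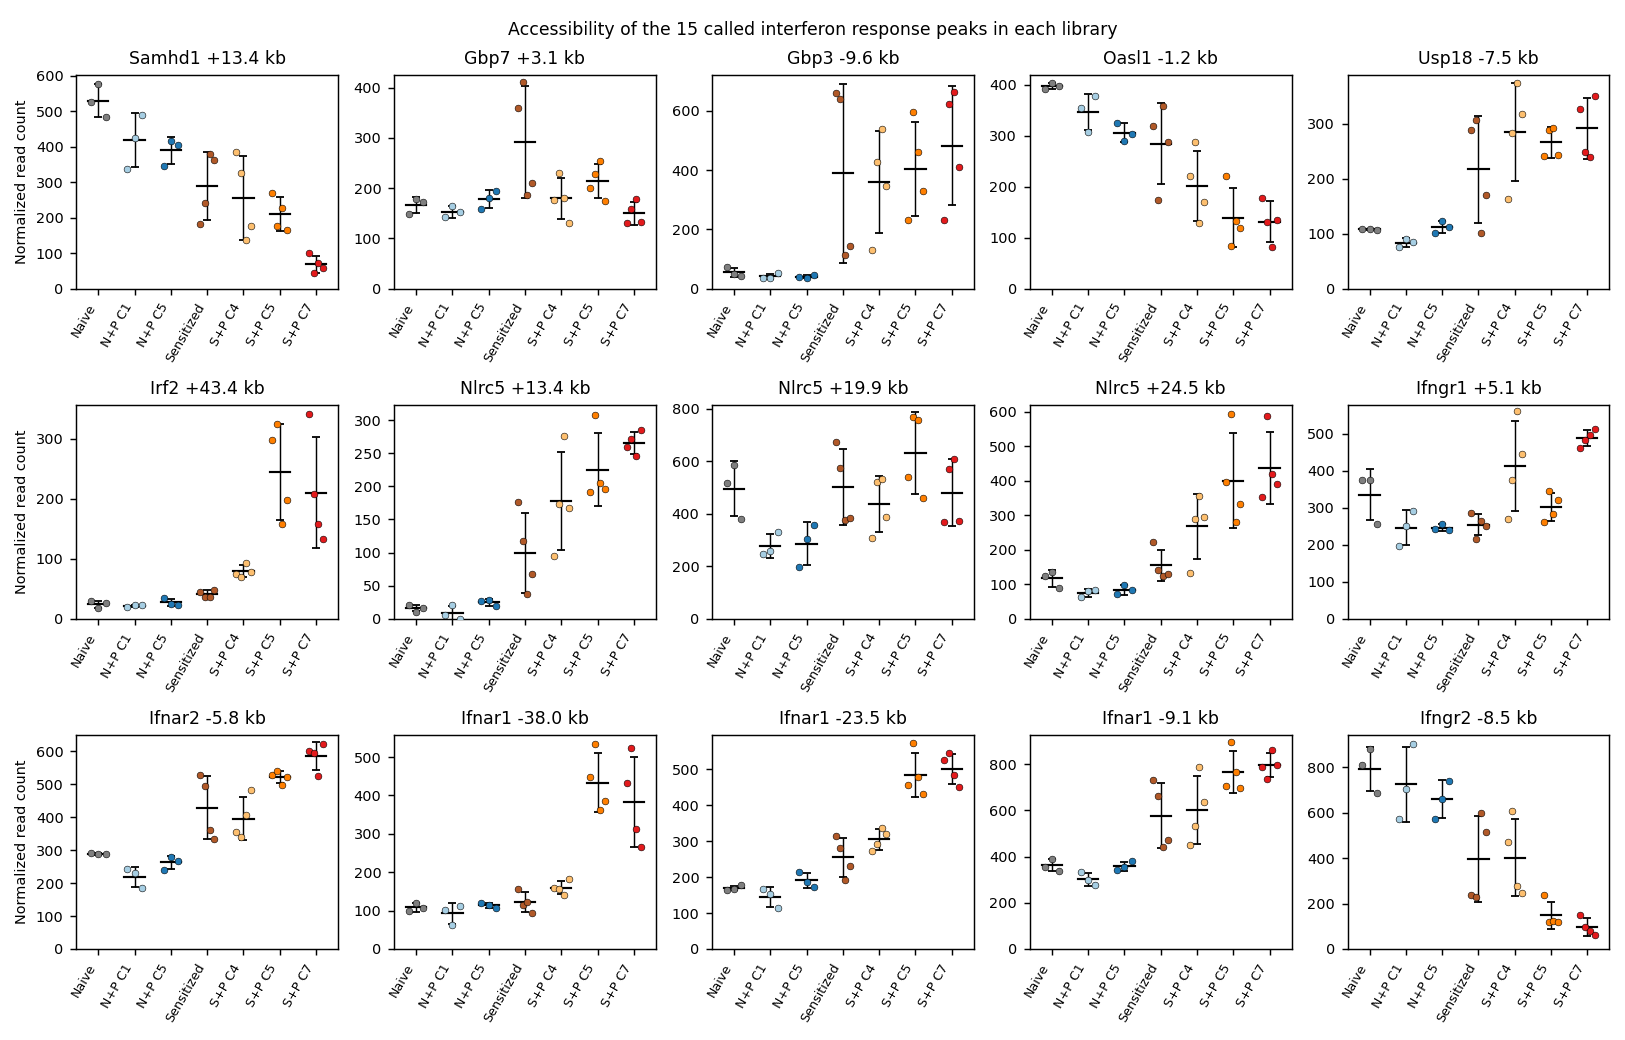
Normalized read count (y axes, from 0) of the 15 called peaks in each of the 25 libraries, by group, with the group mean as a bar and the SD as whiskers. The S+P C5 and S+P C7 libraries at Irf2 +43.4 kb and Ifnar1 −38.0 kb lie above all libraries of the other groups, and the 4 Sensitized libraries split into pairs at Gbp3 −9.6 kb and Ifngr2 −8.5 kb.

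Among the regulators, 1 of 16 peaks was called in any comparison, Irf2 +43.4 kb. It lies in an intron of Irf2, at chr8:47235340-47235827. The normalized counts were 28.9, 17.7 and 26.5 in Naive, 18.8, 22.4 and 22.6 in N+P C1, and 34.2, 24.7 and 22.9 in N+P C5. They were 45.0, 36.9, 36.1 and 48.3 in Sensitized and 74.9, 70.1, 93.4 and 77.3 in S+P C4. In S+P C5 they reached 298, 324, 158 and 198, and in S+P C7 340.2, 208, 157 and 133. The 3 groups of unsensitized mice were low and overlapped, Sensitized and S+P C4 were each higher than the group before without overlap, while the PD1+ subsets of sensitized mothers overlapped each other and exceeded all the others.

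At Irf2 +43.4 kb the log2 fold change was 2.55 ± 0.29 for S+P C5 vs Sensitized (5.86-fold; adjusted p = 9.9e-16) and 2.33 ± 0.29 in S+P C7 vs Sensitized (5.04-fold; adjusted p = 2.5e-13). It was 1.63 ± 0.30 in S+P C5 vs S+P C4 (adjusted p = 3.0e-06) and 3.15 ± 0.35 for S+P C5 vs N+P C5 (8.90-fold; adjusted p = 1.1e-17). In S+P C4 vs Sensitized it was 0.92 ± 0.31 (adjusted p = 0.061), a call that was lost without Sensitized replicate 2 (0.87) or 3 (0.86) or S+P C4 replicate 3 (0.83) or 4 (0.94), without both Sensitized replicates 3 and 4 (0.95), and with edgeR (0.93) or a fit of the 2 groups alone (0.93), since the adjusted p passed 0.1 in each. Loess offsets, which centre the change at each level of mean count, ended the calls at this peak. With them the change was 0.896 for S+P C5 vs Sensitized (adjusted p = 0.040), just inside the fold threshold, 0.67 for S+P C7 vs Sensitized (adjusted p = 0.096), 0.34 for S+P C5 vs S+P C4 and -0.081 for S+P C5 vs N+P C5. Only 0.325% of all peaks had a mean count as low, and the median log2 fold change of those was 3.04 for S+P C5 vs N+P C5 and 2.40 for S+P C5 vs Sensitized, close to the values of this peak. The other IRF and STAT peaks were called in none of the comparisons. Irf4 +37.0 kb, the peak nearest to Irf4, which T cells induce on receptor stimulation, lies in an exon of the neighbouring gene Exoc2. It differed by -0.67 ± 0.13 in S+P C7 vs Sensitized (adjusted p = 4.5e-06), inside the fold threshold, and was named after its values were seen.

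The receptors had 19 peaks, more than any other role, and 6 of them were called in some comparison. Of the peaks between Il10rb and Ifnar1 on chr16, those at −38.0 and −23.5 kb opened in both PD1+ subsets of sensitized mothers against Sensitized, that at −9.1 kb was called against N+P C5 alone, and those at −39.1, −26.6 and −19.8 kb were called in none of the comparisons. Ifnar1 −38.0 kb, at chr16:91243565-91244338, had counts of 97.8, 121 and 107 in Naive, 102, 62.8 and 113 in N+P C1 and 119.7, 114 and 107 in N+P C5. It had 157, 115, 123 and 93.8 in Sensitized and 159.9, 157, 140.0 and 182 in S+P C4. The counts were 448, 534, 362 and 386 in S+P C5 and 431, 523, 312 and 266 in S+P C7. The PD1+ subsets of sensitized mothers thus did not overlap with any other group, while the remaining 5 groups overlapped as a chain. The log2 fold change was 1.82 ± 0.21 for S+P C5 vs Sensitized (3.53-fold; adjusted p = 2.8e-15), 1.64 ± 0.21 in S+P C7 vs Sensitized (adjusted p = 1.2e-12), 1.43 ± 0.22 in S+P C5 vs S+P C4 (adjusted p = 8.0e-09) and 1.93 ± 0.24 for S+P C5 vs N+P C5 (adjusted p = 2.2e-14). These 4 calls held under every alternative run. All alternatives used the same peaks, and this one was listed in S+P C5 and S+P C7 only. Keeping the calls is therefore no independent support.

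Ifnar1 −23.5 kb, at chr16:91257871-91258924, had counts of 164, 167 and 177 in Naive, 167, 154 and 113 in N+P C1, 213, 186 and 172 in N+P C5, and 315, 282, 193 and 230.0 in Sensitized. They were 272, 292, 337 and 319 in S+P C4, then 457, 572, 478 and 431 in S+P C5, and 526, 545, 484 and 451 in S+P C7. Only the PD1+ subsets of sensitized mothers exceeded every library of every other group. The change from Sensitized to S+P C5 was 0.92 ± 0.14 (adjusted p = 1.2e-08) and that to S+P C7 was 0.97 ± 0.14 (adjusted p = 6.0e-10), both close above the threshold. The first fell below 0.9 without Sensitized replicate 3 (0.81) or 4 (0.88) or S+P C5 replicate 2 (0.84) and with loess offsets (0.88), and the second without Sensitized replicate 3 (0.86), and with both Sensitized replicates 3 and 4 left out they were 0.69 and 0.74. Set against N+P C5, S+P C5 gave 1.34 ± 0.16 (adjusted p = 1.3e-14), which was kept throughout. This peak too was listed in S+P C5 and S+P C7 only.

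Ifnar1 −9.1 kb and Ifnar2 −5.8 kb were called for S+P C5 vs N+P C5 alone, by 1.10 ± 0.17 (adjusted p = 4.0e-09) and 0.99 ± 0.16 (adjusted p = 2.9e-09). Ifnar1 −9.1 kb, at chr16:91272402-91273220, had 340.1, 354 and 380.0 counts in N+P C5 and 707, 895, 768 and 695 in S+P C5. Ifnar2 −5.8 kb, at chr16:91163302-91164255, had 240.5, 279.6 and 268 counts in N+P C5 and 528, 542, 497 and 523 in S+P C5. Ifnar1 −9.1 kb had 357, 391 and 339 in Naive, 333, 297 and 277 in N+P C1, 449, 534, 788 and 635 in S+P C4, then 789, 734, 862 and 797 in S+P C7. Ifnar2 −5.8 kb had 292, 287 and 288 in Naive, 242, 229.9 and 185 in N+P C1, 354, 341, 406 and 483 in S+P C4, then 602, 594, 525 and 622 in S+P C7. At both sites the Sensitized libraries were already above Naive without overlap, with 441 to 729.7 and 334 to 528 counts. For Sensitized vs Naive, the log2 fold changes of 0.67 ± 0.17 and 0.57 ± 0.15 had adjusted p = 0.0013 and 0.0024 but lay inside the fold threshold.

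Of the interferon-γ receptor genes, Ifngr2, the signalling chain, had a site that closed. Ifngr2 −8.5 kb, at chr16:91334787-91335934 between Ifnar1 and Ifngr2, had counts of 809, 879 and 688 in Naive, 572, 707 and 901 in N+P C1 and 575, 661 and 742 in N+P C5. Sensitized had 236, 231, 601 and 517, and S+P C4 had 473, 608, 279 and 248. S+P C5 had 237, 119, 122 and 117, and S+P C7 had 149.7, 97.0, 77.9 and 62.9. The unsensitized groups were high and overlapped, Sensitized replicates 3 and 4 lay near them while replicates 1 and 2 did not, and S+P C7 was the lowest. Its log2 fold change was -2.14 ± 0.36 for S+P C5 vs N+P C5 (4.39-fold lower; adjusted p = 2.9e-08), -2.03 ± 0.33 in S+P C7 vs Sensitized (4.09-fold lower; adjusted p = 4.0e-08) and -1.42 ± 0.33 in S+P C5 vs S+P C4 (adjusted p = 0.00063). It was -1.40 ± 0.33 in S+P C5 vs Sensitized (adjusted p = 0.00046), which without Sensitized replicates 3 and 4 became -0.63, no longer called. In Sensitized vs Naive it was -0.998 ± 0.35 (adjusted p = 0.032), a call lost without Naive replicate 1 (-0.98) or 2 (-0.92) or Sensitized replicate 1 (-0.82) or 2 (-0.81). Ifngr1, the ligand-binding chain, had 9 peaks, and 1 was called. Another, Ifngr1 +2.7 kb in an intron, was added to the calls with same-numbered libraries as blocks. Its counts in replicates 1 to 4 were 248, 274, 332 and 288 in S+P C4, against 94.8, 148, 188 and 191 for the matching S+P C5 libraries, lower in each pair. The log2 fold change was -0.89 without the block (adjusted p = 0.0015) and -0.901 with it (adjusted p = 7.0e-07), on either side of the fold threshold. Without the block, edgeR and TMM factors also gave 2 opening and 2 closing peaks for S+P C5 vs S+P C4 (4.64% and 5.27% of all peaks). Ifngr1 +5.1 kb, in an intron at chr10:19472353-19473178, had 375, 376 and 255 counts in Naive, 197, 251 and 290.1 in N+P C1, and 241, 256 and 240.5 in N+P C5. It had 285, 217, 265 and 251 in Sensitized, 269, 375, 560.2 and 446 in S+P C4, then 260.4, 346, 284 and 320.2 in S+P C5 and 463, 483, 495 and 513 in S+P C7. The S+P C4 libraries overlapped those of S+P C7, and 2 of the 3 Naive libraries lay above all Sensitized ones. The rise from Sensitized to S+P C7 was 0.94 ± 0.17 (adjusted p = 7.1e-07), falling to 0.87 without Sensitized replicate 2.

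Among the 12 peaks of antiviral effectors, none opened by the call rule, and 2 closed. Samhd1 +13.4 kb overlaps an exon of Samhd1, whose product depletes nucleotides and so restricts viral DNA synthesis, at chr2:156963531-156964089. Its counts were 528, 577 and 484 in Naive, 338, 426 and 489.8 in N+P C1, 346, 417 and 406 in N+P C5, and 181, 240.1, 379.5 and 362 in Sensitized. They were 384, 326, 136 and 176 in S+P C4, then 271, 176, 227 and 166 in S+P C5, and 99.5, 42.6, 71.2 and 59.1 in S+P C7. Every S+P C7 library was lower than every other library of the study. This was the single peak of the 70 called between S+P C7 and S+P C5, by -1.62 ± 0.30 (3.06-fold lower; adjusted p = 1.7e-05), and against Sensitized S+P C7 differed by -2.08 ± 0.30 (4.23-fold lower; adjusted p = 1.6e-10). Both calls held under every alternative. Oasl1 −1.2 kb, at chr5:115059730-115060436, lies next to a gene whose product restrains Irf7 synthesis. It had 391, 404 and 398 counts in Naive, 355, 308 and 379 in N+P C1 and 326, 289 and 303 in N+P C5. It had 319.6, 173, 359 and 287 in Sensitized, 221, 288, 129 and 169.9 in S+P C4, then 220.4, 84.2, 132 and 119 in S+P C5, and 179, 131, 81.2 and 134 in S+P C7. The fitted change was -1.12 ± 0.30 for S+P C5 vs N+P C5 (adjusted p = 0.00062), -1.11 ± 0.28 in S+P C7 vs Sensitized (adjusted p = 0.00038) and -1.02 ± 0.27 in S+P C5 vs Sensitized (adjusted p = 0.0026). The groups overlapped in both comparisons with Sensitized, and the last call was lost without Sensitized replicate 3 (-0.89) or S+P C5 replicate 2 (-0.85), and without both Sensitized replicates 3 and 4 (-0.81).

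None of the 4 peaks of the nucleic acid sensors was called in any comparison. In the ISG15 and ADP-ribosylation group, 1 of 7 was, Usp18 −7.5 kb at chr6:121215157-121215629. It had 109, 108 and 106 counts in Naive, 75.2, 90.8 and 84.8 in N+P C1, and 102, 123 and 112 in N+P C5. It had 288, 308, 102 and 170.3 in Sensitized, 163, 283, 375 and 318 in S+P C4, then 242, 289, 292 and 243 in S+P C5, and 327, 249, 240.2 and 352 in S+P C7. Sensitized replicate 3 lay below the Naive libraries and replicates 1 and 2 far above them. Its change on the log2 scale was 1.25 ± 0.29 for S+P C5 vs N+P C5 (adjusted p = 0.00011) and 1.01 ± 0.29 in Sensitized vs Naive (adjusted p = 0.0056). The latter fell to 0.84 and 0.80 without Sensitized replicate 1 or 2, and both fell below the threshold with loess offsets (0.77 and 0.80).

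The guanylate-binding proteins, GTPases that attack the membranes of intracellular pathogens, had 4 peaks, and 2 were called. Gbp3 −9.6 kb, between Gbp7 and Gbp3 at chr3:142255780-142256481, was almost closed in unsensitized mice. The counts were 73.0, 48.2 and 43.5 in Naive, 36.5, 37.0 and 50.9 in N+P C1, and 39.2, 34.3 and 45.7 in N+P C5. They were 659, 639, 112 and 144 in Sensitized, 129, 428, 538 and 346 in S+P C4, then 232, 597, 461 and 329 in S+P C5, and 231, 623, 664 and 409 in S+P C7. Each library of sensitized mice exceeded each library of unsensitized mice, with Sensitized replicates 3 and 4 and S+P C4 replicate 1 nearest to them. The log2 fold change was 2.83 ± 0.51 in Sensitized vs Naive (7.11-fold; adjusted p = 1.0e-06) and 3.35 ± 0.52 for S+P C5 vs N+P C5 (10.2-fold; adjusted p = 2.7e-09), and both calls held under every alternative. The peak was listed in S+P C5 and S+P C7 only, so the second call is no independent support for a difference. It was called in none of the comparisons of post-partum cells with Sensitized. Gbp7 +3.1 kb, in an intron at chr3:142238905-142239343, was highest in Sensitized, with 359, 412, 186 and 209.9 counts, against 130.1, 158, 179 and 133 in S+P C7. It had 149, 179 and 172 in Naive, 142, 165 and 153 in N+P C1, and 159, 179.5 and 195 in N+P C5. S+P C4 had 177, 231, 179.6 and 131, while S+P C5 had 201, 228, 254 and 175. Sensitized replicates 1 and 2 alone stood above all the other libraries. The difference of -0.97 ± 0.23 (adjusted p = 0.00018) was no longer called without Sensitized replicate 1 (-0.85) or 2 (-0.76).

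Antigen presentation had 8 peaks, of which 3 were called, all in introns of Nlrc5. Nlrc5 +13.4 kb, at chr8:95174031-95174670, had 20.7, 10.8 and 16.4 counts in Naive, 5.53, 20.2 and 0 in N+P C1 and 26.2, 28.8 and 19.2 in N+P C5. Sensitized had 177, 117, 37.8 and 67.8, S+P C4 had 95.3, 174, 276 and 167, S+P C5 had 191, 308, 205 and 196, and S+P C7 had 259, 271, 245 and 285. All libraries of sensitized mice lay above all those of unsensitized mice, and the PD1+ subsets lay above all Sensitized libraries. The log2 fold change was 2.66 ± 0.48 in Sensitized vs Naive (6.30-fold; adjusted p = 7.0e-07) and 3.18 ± 0.46 for S+P C5 vs N+P C5 (9.09-fold; adjusted p = 1.6e-10). Against Sensitized it was 1.41 ± 0.40 in S+P C7 (adjusted p = 0.0019) and 1.17 ± 0.40 in S+P C5 (adjusted p = 0.021). Without Sensitized replicates 3 and 4 these became 0.85 and 0.61, and the S+P C5 call was also lost without Sensitized replicate 3 (0.898) or S+P C5 replicate 2 (0.99). Loess offsets ended all 4 calls, with values of 0.54, 0.10, 0.19 and -0.11 in the order given. Of all peaks 1.19% had no higher a mean count, and their median log2 fold change was 2.95 for S+P C5 vs N+P C5 and 1.38 for S+P C5 vs Sensitized.

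Nlrc5 +24.5 kb, at chr8:95185153-95185826, had 124, 137 and 89.6 counts in Naive, 61.9, 79.6 and 82.9 in N+P C1, 70.4, 98.7 and 84.2 in N+P C5, 222, 143, 124 and 129 in Sensitized, 133, 288, 355 and 295 in S+P C4, then 396, 594, 279 and 334 in S+P C5, and 352, 589, 419 and 390.3 in S+P C7. All S+P C5 and S+P C7 libraries exceeded all Sensitized ones. The log2 fold change was 1.37 ± 0.27 for S+P C5 vs Sensitized (adjusted p = 1.4e-05), 1.499 ± 0.27 in S+P C7 vs Sensitized (adjusted p = 4.8e-07) and 2.25 ± 0.30 for S+P C5 vs N+P C5 (adjusted p = 3.5e-12), and these 3 calls held under every alternative. The peak was listed in S+P C5 and S+P C7 only, so keeping them is no independent support. Nlrc5 +19.9 kb, at chr8:95180507-95181359, had 518, 586 and 382 counts in Naive, 246, 258 and 332 in N+P C1, and 196, 303 and 357 in N+P C5. It had 672, 573, 375 and 386 in Sensitized, 309.6, 521, 533 and 388 in S+P C4, then 540.3, 768, 757 and 461 in S+P C5, and 369, 572, 608 and 372 in S+P C7. It was called for S+P C5 vs N+P C5, by 1.15 ± 0.27 (adjusted p = 8.9e-05).

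Whether pregnancy acted differently on C5 cells with and without sensitization was tested as the change from Sensitized to S+P C5 minus that from Naive to N+P C5. In this test 5 of the 70 peaks were called, 4 positive and 1 negative, against 5.97% of all peaks, 3.04% positive and 2.93% negative. Of these, Irf2 +43.4 kb, Ifnar1 −38.0 kb and Nlrc5 +24.5 kb were listed in no group other than S+P C5 or S+P C7, and Ifngr2 −8.5 kb in unsensitized mice only, so their differences are not independent of entry into the table. At Irf2 +43.4 kb the change was 2.55 ± 0.29 with sensitization and 0.18 ± 0.40 without, and the difference was 2.38 ± 0.49 (adjusted p = 0.00042), a call that loess offsets ended (1.07; adjusted p = 0.15). At Ifnar1 −38.0 kb it was 1.82 ± 0.21 and 0.06 ± 0.26, with a difference of 1.76 ± 0.33 (adjusted p = 0.00011). At Nlrc5 +24.5 kb it was 1.37 ± 0.27 and -0.47 ± 0.33, with a difference of 1.84 ± 0.42 (adjusted p = 0.0016). Nlrc5 +19.9 kb had 0.33 ± 0.24 and -0.80 ± 0.28, neither of them a call, and a difference of 1.13 ± 0.37 (adjusted p = 0.024) that was no longer called without Naive replicate 2 (0.99) or without Sensitized replicates 3 and 4 (0.82). For Ifngr2 −8.5 kb the changes were -1.40 ± 0.33 and -0.27 ± 0.38, and the difference of -1.14 ± 0.50 (adjusted p = 0.083) was lost under most alternatives, among them edgeR (-1.11) and the omission of Sensitized replicates 3 and 4 (-0.37). Of the 28 promoter peaks, 0 were called in this test, against 1.94% of all promoter peaks.

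**Figure D4:**
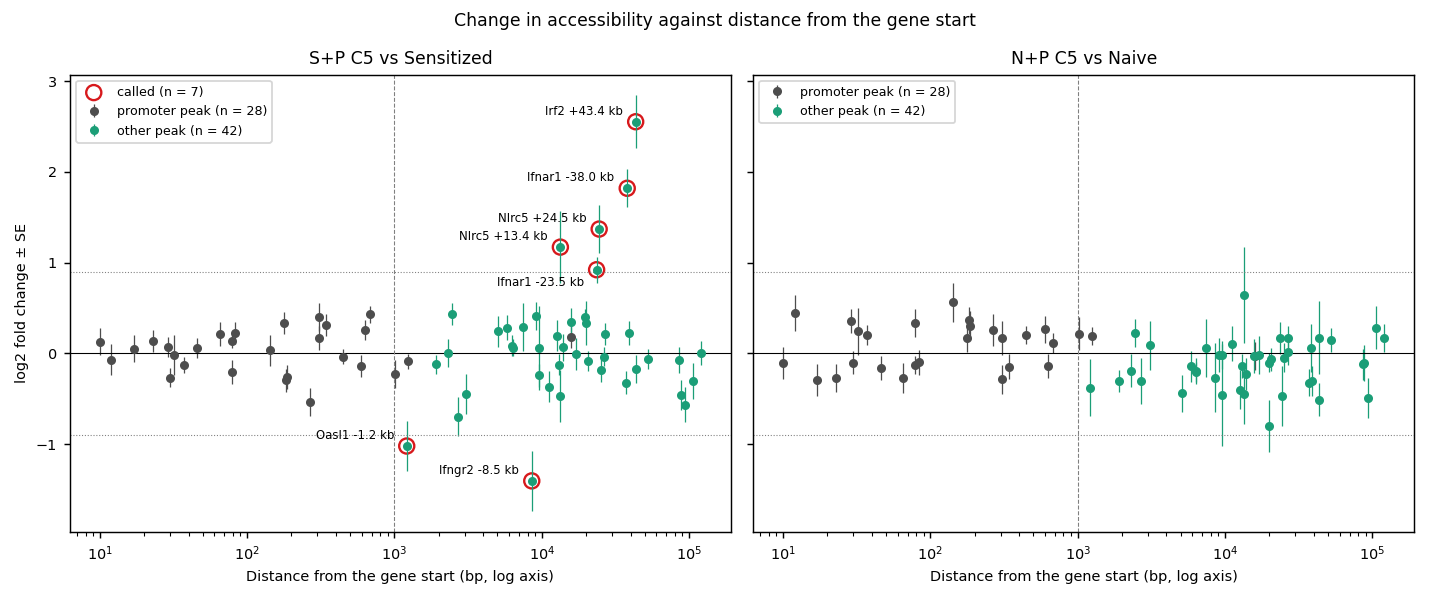
Log2 fold change ± SE of the 70 peaks (y axis) against the distance of the peak's midpoint from the gene start in bp (x axis, log scale, with distances under 10 bp drawn at 10), for S+P C5 vs Sensitized on the left and N+P C5 vs Naive on the right, with the fold threshold dotted, 1 kb dashed and called peaks circled. The 7 called peaks on the left lie more than 1 kb from the gene start, between Ifngr2 −8.5 kb at -1.40 and Irf2 +43.4 kb at 2.55, and on the right no peak is called; the promoter peak at 15.9 kb is that of an alternative start of Adar.

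A further 91 genes of the interferon pathway were looked up in the same way, and 62 of them had 121 peaks. In Sensitized vs Naive 9 of these peaks opened and 2 closed, in S+P C5 vs Sensitized 4 opened and 2 closed, in S+P C7 vs Sensitized 6 and 2, and for S+P C5 vs N+P C5 13 and 2. These were 9.09%, 4.96%, 6.61% and 12.4% of the 121 peaks, near or below the shares of all peaks given above (8.62%, 6.74%, 11.9% and 17.2%). No peak was called in either comparison of N+P cells with Naive. The 52 peaks of signal transduction genes, 41 of them outside promoters, held 10 of the 11 calls in Sensitized vs Naive and all 6 in S+P C5 vs Sensitized. That was 19.2% and 11.5% of the 52, against 8.62% and 6.74% of all peaks. Among the 41 outside promoters it was 22.0% and 14.6%, against 18.4% and 14.7% of all peaks outside promoters. In Sensitized vs Naive the smallest adjusted p of opening peaks belonged to an intronic peak of Jak2, a kinase of the interferon-γ receptor, which went from 18.1 ± 3.46 to 219 ± 116 counts (log2 fold change 3.57 ± 0.44), and to an intronic peak of Tbx21, the gene of T-bet (16.6 ± 9.44 to 169.9 ± 103, log2 fold change 3.35 ± 0.42). Of closing peaks it belonged to one in an intron 116851 bp from the start of Socs1, an inhibitor of Janus kinases (-1.05 ± 0.27). The next smallest belonged to one 33162 bp from the start of Irf2bp2, a corepressor of Irf2 (-1.11 ± 0.32). In S+P C5 vs Sensitized these were an intronic peak of Stat3 (70.9 ± 48.5 to 281 ± 118 counts; 1.98 ± 0.37), a second intronic peak of Tbx21 (1.54 ± 0.42), the same peak of Irf2bp2 (-1.35 ± 0.30), and one 192700 bp from the start of Ifng, the gene of interferon-γ itself (758 ± 231 to 346 ± 119; -1.13 ± 0.26). The SDs of Sensitized here again span libraries that differ among themselves. Single calls at these 121 peaks were not followed under the alternatives, loess offsets included.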

How the data were processed

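ATAC-seq read counts of 25 libraries were analysed. The counts were deposited by the authors as raw reads per peak: reads were trimmed with cutadapt 3.4, aligned to GRCm39 with Bowtie2 2.2.9 (labels and methods), non-unique reads and duplicates (Picard 2.21.8) were removed, peaks were called per library with Genrich 0.6.1, reproducible peaks were kept per group and merged with bedtools 2.27.1, and deepTools counted reads. The score column of the 7 peak lists deposited by the authors was checked but not tested, and the lists served to say in which groups a peak was listed. Removing duplicates and multiply mapped reads lowers counts in repeats, and merging sets a peak's width for all groups. Annotation was GENCODE vM39, with 5 peaks on unplaced sequence left without a gene.

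One DESeq2 1.42.0 fit (R 4.3.3) over all libraries and all 13527 peaks used group as the term and median-of-ratios size factors, without shrinkage, and p-values are from the Wald test with Benjamini-Hochberg adjustment over all peaks. Normalized counts are counts divided by these factors. The procedure was tested on simulated data. Thresholds followed the study: adjusted p under 0.1 and a log2 fold change beyond 0.9. The alternatives were edgeR 4.0.16, TMM and total-count factors, loess offsets (limma 3.58.1), count filters, the groups alone, single libraries left out and, chosen after seeing the data, Sensitized replicates 3 and 4 left out. Cells were prepared from individual mice, but the labels do not tie a library to a mouse, so p-values measure the spread between these libraries. Same-numbered libraries of post-partum subsets were checked for pairing: their deviations from the group means correlated across peaks with r from 0.103 to 0.771 in the pairs of the comparisons made, so the numbers were taken to pair the samples there. For S+P C7 with S+P C4, not compared, r ran from 0.0639 to 0.666, and 1 pair with different numbers, S+P C5 replicate 2 with S+P C4 replicate 3, reached 0.44. Every called peak is named, and promoters by the order of the gene list. The genes, lists and tests were chosen with earlier results of these data known.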

Additional observations from a re-analysis of the deposited data

Results flagged for a closer look

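In 60 groups of 4 libraries at called peaks, 2 libraries stood far from the rest of their group by Dixon's test, where chance gives about 1 in 20 groups. At Nlrc5 +13.4 kb, S+P C5 replicate 2 had a normalized count of 308, against 191 to 205 in the other 3. At Ifngr2 −8.5 kb, S+P C5 replicate 1 had 237, against 117 to 122 in the other 3.

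The change with pregnancy in C5 cells differed between sensitized and naive mice, by the interaction test of DESeq2, at 5 peaks. On the log2 scale, sensitized minus naive, the difference was 2.38 at Irf2 +43.4 kb, 1.13 at Nlrc5 +19.9 kb, 1.84 at Nlrc5 +24.5 kb, 1.76 at Ifnar1 −38.0 kb and -1.14 at Ifngr2 −8.5 kb. Sensitized replicates 3 and 4 and Naive replicate 3, which stand apart from their groups, enter this test, and their part in the differences was not tested beyond leaving them out, which kept the calls at Irf2 +43.4 kb, Nlrc5 +24.5 kb and Ifnar1 −38.0 kb. These 3 peaks were listed in no group other than S+P C5 or S+P C7, where they are high, so a kept call there is no independent support for a difference.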

How the results depend on the processing

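Of the 43 calls of single peaks, 22 were kept under every alternative, 21 were lost under at least 1 and 2 of these reversed, both with loess offsets: Irf2 +43.4 kb to -0.081 for S+P C5 vs N+P C5 and Nlrc5 +13.4 kb to -0.11 in S+P C5 vs Sensitized. Of the 27 calls in fits without Sensitized replicates 3 and 4, an omission chosen after seeing the data, 18 were kept. In counts of called peaks, leaving out 1 library at a time gave 2 to 6 for Sensitized vs Naive (4 with all libraries), 0 to 2 for N+P C1 vs Naive (0; 2 without Naive replicate 3), 0 to 1 for N+P C5 vs Naive (0; 1 without Naive replicate 3), 0 to 3 for S+P C4 vs Sensitized (1), 4 to 7 for S+P C5 vs Sensitized (7), 8 to 10 for S+P C7 vs Sensitized (10), 12 to 15 for S+P C5 vs N+P C5 (12), 1 to 3 between S+P C7 and S+P C5 (1), 3 to 4 for S+P C5 vs S+P C4 (3) and 3 to 6 for the interaction (5). The same omissions moved the share of all peaks called, in that order, over 6.69% to 10.9%, 0.0% to 1.18%, 0.0% to 1.16%, 0.488% to 1.94%, 4.61% to 9.29%, 10.3% to 14.5%, 16.2% to 18.7%, 1.3% to 4.47%, 3.6% to 6.16% and 2.92% to 12.0%. Without Naive replicate 3, 160 and 157 of all peaks were called for N+P C1 vs Naive and for the C5 cells of N+P vs Naive, against 1 and 1 with it. Without Sensitized replicates 3 and 4 there were 7 for Sensitized vs Naive and 3 for S+P C5 vs Sensitized, while the share of all peaks went to 15.2% and 3.25%. Loess offsets gave 4 for S+P C5 vs Sensitized, 0 for S+P C4 vs Sensitized and 1 for N+P C1 vs Naive, where total counts also gave 1, against 6.22%, 0.991%, 0.0222% and 0.414% of all peaks. For S+P C4 vs Sensitized, an adjusted p under 0.05, edgeR and a fit of the groups alone each gave 0 (0.665%, 0.591% and 0.296% of all peaks). Without a fold threshold the counts, in the order above from Sensitized vs Naive, were 14, 3, 0, 6, 24, 34, 39, 6, 14 and 20. Among the 42 peaks within 10 kb of a gene start they were, in the same order, 3, 0, 0, 0, 2, 4, 6, 0, 1 and 1, against 3.04%, 0.0%, 0.0%, 0.152%, 1.99%, 4.41%, 6.55%, 0.746%, 1.36% and 2.73% of all peaks within 10 kb. The causes of these changes were not tested, apart from the smaller number of peaks within 10 kb.

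With the replicate block, the paired fits gave 1 called peak between S+P C7 and S+P C5, 4 for S+P C5 vs S+P C4 and 0 for N+P C5 vs N+P C1, against 3.33%, 5.46% and 0.0148% of all peaks. The added call was Ifngr1 +2.7 kb, closing. No call of the fits without the block was lost.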
